A study of Mus musculus with 6 samples.

Results

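The Ly6 surface antigens examined here are 5 genes of mouse dendritic cells, Ly6a, Ly6c1, Ly6c2, Ly6e and Ly6i, found by their symbols among the 30587 rows of a table of read counts. They were selected on these same read counts, for being higher in KO than in WT cells, so their difference between genotypes is given as a description, with no test. Dendritic cells were grown from bone marrow of C57BL/6 mice, in 3 libraries per genotype. WT cells had the genotype Hif2afl/fl, with floxed alleles of the HIF-2α gene that remain intact. KO cells had the genotype CD11c-Cre;Hif2afl/fl, in which Cre under control of the CD11c promoter deletes those alleles in cells that express CD11c. All 6 cultures, WT included, had received dimethyloxalylglycine (DMOG), which stabilises HIF, for 24 h and then the glycolipid α-galactosylceramide for 4 h, so no library shows untreated cells. The labels give neither the ages of the mice nor whether libraries 1 to 3 of a genotype stem from different mice or cultures, so p-values reflect only library-to-library spread, possibly technical.

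Ly6 proteins are small, cysteine-rich proteins held at the outer face of the cell by a glycosylphosphatidylinositol (GPI) anchor. Many of their mouse genes lie side by side on chromosome 15 and arose by duplication, and several are induced by interferons. Ly6a encodes Sca-1, used to sort blood stem cells and also found on activated lymphocytes. Ly6c1 and Ly6c2 encode the Ly6C antigens, whose level separates inflammatory from patrolling monocytes. Ly6e encodes a widely expressed protein, also known as Sca-2 and TSA-1, which affects the entry of several viruses, and Ly6i encodes a relative of Ly6C made by bone marrow cells.

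How far reads can be assigned to one copy depends on sequence, so the copies were compared first. The coding sequences of Ly6c1 and Ly6c2, each 393 bases long in GENCODE M21, had 9 mismatches (97.71% identity) and a shared run of 188 bases. The 60-base coding stretch that sets them most apart is shown because a read across it can be placed, with the 6 differing bases in capitals. It lies at chr15:75048447-75048506 in Ly6c1 and chr15:75111603-75111662 in Ly6c2 (mm10, both minus strand) and begins at coding base 6.
Ly6c1: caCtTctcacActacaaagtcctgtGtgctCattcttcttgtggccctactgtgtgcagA
Ly6c2: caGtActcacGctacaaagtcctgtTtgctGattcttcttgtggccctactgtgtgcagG
The remaining pairs were further apart. Ly6a and Ly6i had 86.32% identical coding bases, Ly6a and Ly6c2 81.59%, and Ly6e no more than 53.5% with any other member. Of all 50-base windows of the reference transcript, 32.99% in Ly6c2 and 36.73% in Ly6c1 also occurred in another gene, against 8.05% in Ly6a, 4.97% in Ly6i and 0 in Ly6e. With 100-base windows the shares were 15.77%, 15.3%, 0, 0 and 0. No stretch of these lengths in Ly6e was thus shared with another annotated transcript, while the split of reads between Ly6c1 and Ly6c2 is uncertain. The sources used here give neither the read length nor how reads that align to several places were counted.

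**Figure D1:**
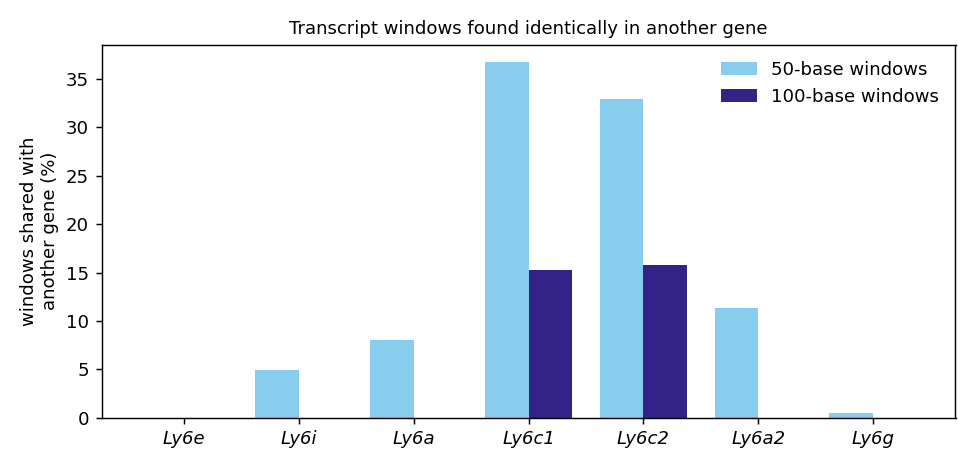
Share of 50-base and 100-base windows of each reference transcript (percent, vertical axis) that occur identically in a transcript of another gene, for the 5 members, Ly6a2 and Ly6g. Ly6c1 and Ly6c2 stand at 36.73% and 32.99% with 50-base windows and are the only genes shown with shared 100-base windows.

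Promoter windows from RefSeq (GRCm38.p6) were found for 2 of the 5 members, Ly6c1 and Ly6c2, and for their neighbour Ly6a2. The 250 bases before the start site are printed to show the start regions of these neighbouring genes beside each other. The capitals mark GAGGAAGT, a form of the site bound by PU.1, a factor of myeloid cells. It was chosen after the windows had been seen.
Ly6c1, chr15:75048838-75049087, minus strand: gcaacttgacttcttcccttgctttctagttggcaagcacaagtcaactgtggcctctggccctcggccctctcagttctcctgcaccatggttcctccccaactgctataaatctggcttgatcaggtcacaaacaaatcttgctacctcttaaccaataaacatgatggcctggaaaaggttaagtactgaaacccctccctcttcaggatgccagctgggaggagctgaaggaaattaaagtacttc
Ly6c2, chr15:75111972-75112221, minus strand: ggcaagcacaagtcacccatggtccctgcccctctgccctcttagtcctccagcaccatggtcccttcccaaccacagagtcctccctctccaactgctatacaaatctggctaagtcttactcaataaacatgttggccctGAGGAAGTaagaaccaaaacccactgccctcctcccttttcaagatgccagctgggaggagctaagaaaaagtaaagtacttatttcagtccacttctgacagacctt
Ly6a2, chr15:75135129-75135378, minus strand: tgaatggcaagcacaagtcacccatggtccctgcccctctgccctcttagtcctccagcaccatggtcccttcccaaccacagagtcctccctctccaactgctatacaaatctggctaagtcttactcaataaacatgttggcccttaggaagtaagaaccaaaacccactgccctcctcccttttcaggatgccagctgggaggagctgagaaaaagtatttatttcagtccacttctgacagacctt
Of the 3 stretches printed, which lie before the outermost start of each gene, the one of Ly6c2 holds GAGGAAGT. A second RefSeq window of Ly6c1, at a start further inside the gene, holds it too, as do windows of Ly6f and of Ly6g, which had at most 4 reads in any library. Over all 32851 promoter windows of 300 bases, 3.2% hold it on either strand. No window of Ly6c1 or Ly6c2 held the core of the interferon-stimulated response element (GAAA, any pair of bases, GAAA), the STAT site TTCNNNGAA, or the hypoxia-response letters ACGTG or GCGTG, on either strand. These occur in 3.44%, 8.3% and 43.8% of all windows. A missing match says only that these letters are not in this window.

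For each of the 5 genes the lowest KO library lay above the highest WT library. The same held for 20.5% of the 13249 rows with enough reads for a test, the reverse for 20%, and so the genotypes did not overlap in 40.4%. Called higher in KO were 13.8% of the rows and called lower 12% (edgeR quasi-likelihood test, Benjamini-Hochberg adjusted p under 0.05). As the genes were picked for this direction, nothing is read from their count. Ly6c1 had too few reads for the fit. The median log2 fold change of the other 4 was 1.65, against -0.00929 over all tested rows. Levels are in CPM (reads relative to the library total, scaled by TMM), and fold changes are KO relative to WT ± SE, with n = 3 libraries per genotype throughout.

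Ly6e (chr15:74955051-74959905, plus strand, mm10) was by far the most abundant. WT 1, 2 and 3 held 7684, 7195 and 6705 of its reads, and KO 1, 2 and 3 held 28495, 28388 and 27927. Scaled, the WT libraries were at 454, 466 and 457 CPM and the KO libraries at 1562, 1681 and 1619 CPM. The genotypes lay far apart, with little spread inside either (mean 459 ± 5.95 CPM against 1621 ± 59.6 CPM, SD). The log2 fold change was 1.82 ± 0.05, or 3.53-fold, and 102 of the 13249 rows had one at least as high. Ly6e alone made up 91.5% to 92.6% of the summed CPM of the 5 genes in every library. The sum ran from 493 to 503 CPM across WT and from 1708 to 1815 CPM across KO.

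Ly6a (chr15:74994877-74998031, minus strand), the Sca-1 gene, showed the largest fold change of the 4 that could be fitted. The WT libraries held 147, 152 and 149 of its reads and the KO libraries 1242, 1154 and 1158, or 8.69, 9.84 and 10.2 CPM against 68.1, 68.3 and 67.1 CPM. The 3 KO libraries were nearly level, with an SD of 0.628 CPM on a mean of 67.9 CPM, while WT averaged 9.57 ± 0.771 CPM (SD). The log2 fold change was 2.83 ± 0.08, or 7.11-fold, and 43 of all rows had one at least as high.

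Ly6c2 (chr15:75108158-75111970, minus strand), which encodes a Ly6C antigen, was counted 465, 395 and 394 times in the WT libraries and 1294, 1003 and 1058 times in the KO libraries. These are 27.5, 25.6 and 26.9 CPM against 70.9, 59.4 and 61.4 CPM. KO 1 stood above KO 2 and KO 3, and the lowest KO library was still far above the highest WT library. The log2 fold change was 1.26 ± 0.08, or 2.4-fold. The other Ly6C gene, Ly6c1 (chr15:75044018-75048830, minus strand), was counted 0, 1 and 0 times in the WT libraries and 3, 3 and 2 times in the KO libraries. At 1 read against 8, the ratio of KO to WT was 7.18, with an exact 95% interval of 0.963 to 319 that covers counting error only. Reads of Ly6c1 came to at most 0.299% of those of Ly6c2 in any library, and summing both into 1 row left the log2 fold change at 1.26.

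Ly6i (chr15:74979534-74983430, minus strand) was low in both genotypes. The WT libraries held 42, 30 and 35 of its reads and the KO libraries 121, 102 and 111, or 2.48, 1.94 and 2.39 CPM against 6.63, 6.04 and 6.44 CPM. The genotypes did not overlap, and the log2 fold change was 1.48 ± 0.17, or 2.8-fold, with the widest error of the 4.

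**Figure D2:**
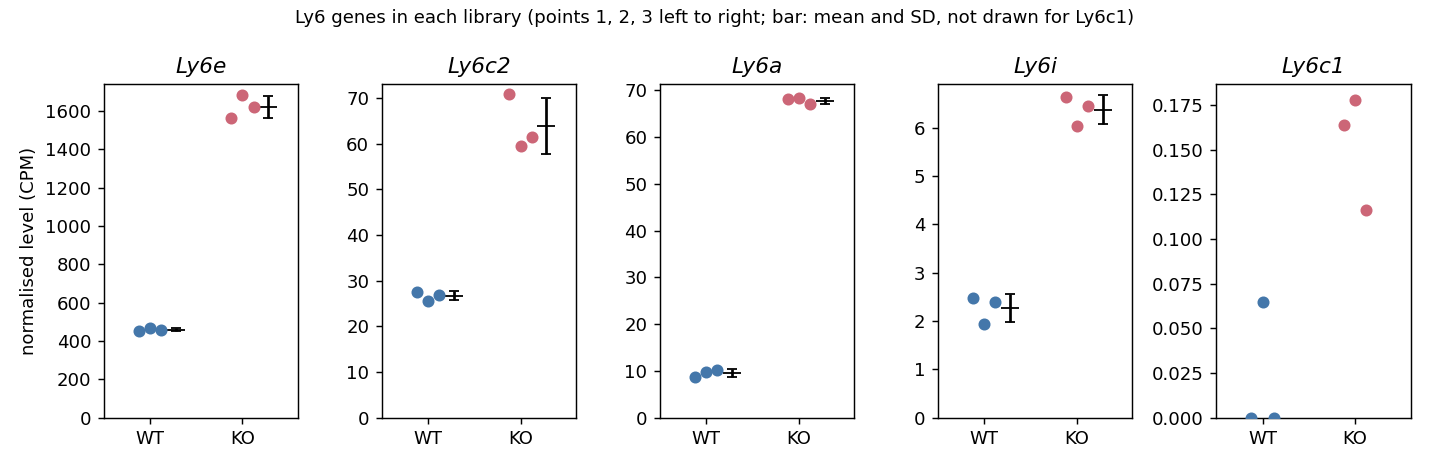
Level of each of the 5 genes in CPM (vertical axis, starting at 0 and scaled per gene) in the 3 WT and 3 KO libraries, with mean and SD beside the points except for Ly6c1. Ly6e runs from 454 to 466 CPM in WT and from 1562 to 1681 CPM in KO, whereas Ly6c1 stays below 0.2 CPM.

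**Figure D3:**
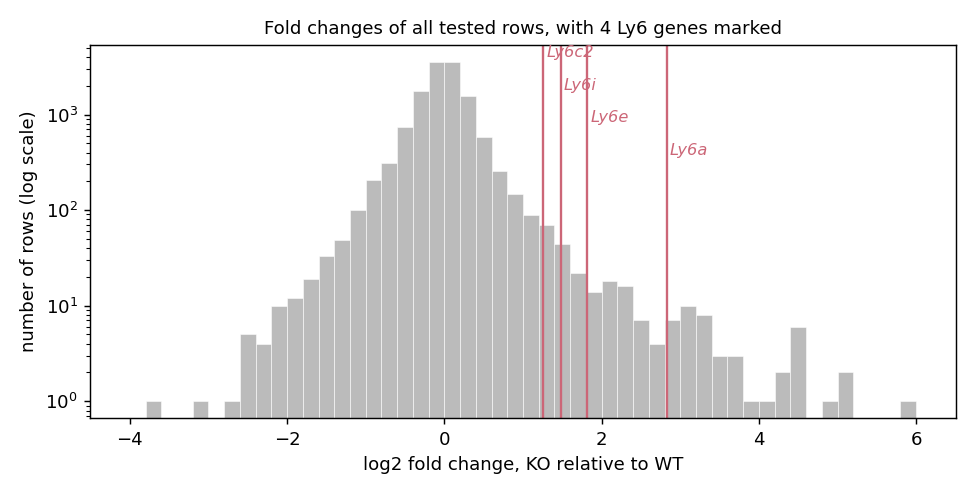
Number of rows (vertical axis, log scale) by log2 fold change of KO relative to WT (horizontal axis) over all 13249 rows tested, with lines at 4 Ly6 genes. The lines stand at 1.26, 1.48, 1.82 and 2.83, in the upper tail.

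Because the fold changes differed among the members, their balance differed between genotypes. Reads of Ly6a came to 31.6%, 38.5% and 37.8% of those of Ly6c2 for WT 1, 2 and 3 and to 96%, 115% and 109% for KO 1, 2 and 3. Reads of Ly6i were 19.7% to 28.6% of those of Ly6a in WT and 8.84% to 9.74% in KO. Against Ly6c2, whose fold change was closer to its own, the ratio of Ly6i shifted less, from 7.59% to 9.03% in WT to 9.35% to 10.5% in KO. Every KO ratio lay above every WT ratio. The exact 95% intervals, which cover counting error only, overlapped (5.06% to 11% for WT 2, 8.55% to 12.8% for KO 3). Summing Ly6a, Ly6c1, Ly6c2 and Ly6i into 1 row gave a log2 fold change of 1.84, between those of its parts.

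Levels between genes were compared per kilobase of reference transcript. In WT the order was Ly6e (201 ± 2.61 CPM per kb, SD), Ly6c2 (32.4 ± 1.19), Ly6a (11.7 ± 0.942), Ly6i (1.96 ± 0.25) and Ly6c1 (0.0256 ± 0.0443), with no overlap between neighbours in the order. In KO, Ly6e again came first, at 711 ± 26.1 CPM per kb. Ly6a and Ly6c2 could not be ordered there, at 82 to 83.4 against 72.3 to 86.3 CPM per kb. More 50-base windows were shared with another gene in Ly6c2 (32.99%) than in Ly6a (8.05%). How reads from shared stretches were counted is not known, so this comparison may be skewed. Ly6i followed at 5.51 ± 0.261 and Ly6c1 at 0.181 ± 0.0385. With the length of all annotated exons, which counts retained introns of Ly6c2, Ly6a came above Ly6c2 in KO (56.3 against 23.3 CPM per kb) and below it in WT (7.94 against 9.73).

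The 5 genes lie within 157 kb, and other genes of the cluster were not part of the choice. GENCODE M21 lists 37 genes from Psca to Ly6f, of which 21 have a row in the table. Of the 16 rows that are not members, 5 had enough reads for a test, and 2 of those rose and 0 fell. Of all rows tested 13.8% rose and 12% fell, and with 5 genes nothing is read from this count. The remaining 11 rows had at most 5 reads in any library. The gene that rose most was Ly6a2, listed in the table as I830127L07Rik (chr15:75131377-75135128, minus strand), the next annotated gene beyond Ly6c2. GENCODE M21 calls it a transcribed pseudogene and RefSeq a protein-coding gene. The WT libraries held 40, 38 and 31 of its reads and the KO libraries 105, 99 and 90, with no overlap. The log2 fold change was 1.27 ± 0.17, or 2.42-fold (edgeR adjusted p = 0.000111), close to that of Ly6c2. Of its 50-base windows, 11.31% also occurred in other genes, among them Ly6a and Ly6i, and none of its 100-base windows did.

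Beyond the other end of the group, Them6, encoding a protein of the thioesterase superfamily and no Ly6 gene, was 1.61-fold higher in KO, a log2 fold change of 0.69 ± 0.15 (edgeR adjusted p = 0.00436). The WT libraries were at 6.21, 7.32 and 7.09 CPM and the KO libraries at 13.4, 9.65 and 10.1 CPM, with KO 1 highest, and without KO 1 the log2 fold change was 0.53. Its end overlaps Slurp1 on the other strand, and a strand setting is not given in the sources used here. Psca, which encodes a Ly6 protein first found in prostate, averaged 0.781 ± 0.246 CPM across WT and 0.817 ± 0.151 CPM across KO (SD, edgeR adjusted p = 0.927). Ly6m, listed as 2010109I03Rik, averaged 1.12 ± 0.332 and 1.13 ± 0.4 CPM (SD, edgeR adjusted p = 0.973). Lynx1, encoding a modulator of acetylcholine receptors, averaged 3.12 ± 0.064 CPM across WT and 2.09 ± 0.453 CPM across KO (SD), a log2 fold change of -0.58 ± 0.22 (edgeR adjusted p = 0.0644). Every KO library was below every WT library, and it passed without KO 2 (-0.77). The granulocyte antigen gene Ly6g was counted 4, 3 and 0 times in the WT libraries and 0, 0 and 1 times in the KO libraries.

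**Figure D4:**
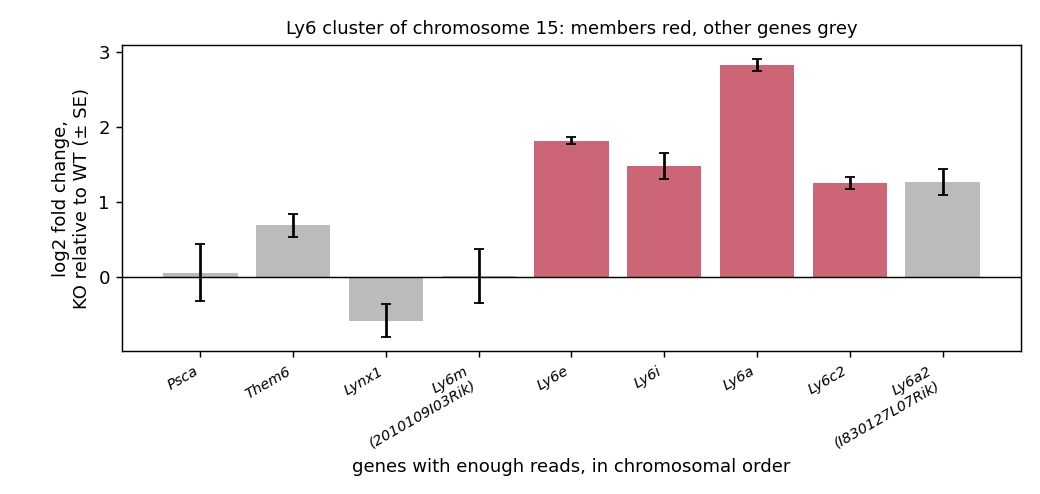
Log2 fold change of KO relative to WT with SE (vertical axis) for the 9 genes from Psca to Ly6f with enough reads for a test, in chromosomal order (horizontal axis), members in red and other genes in grey. The 4 members shown were chosen for being higher in KO, so the direction of their bars was fixed in advance. Of the other genes, Ly6a2 stands at 1.27 and the 4 genes before Ly6e lie between -0.58 and 0.69.

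Relatives of the family on other chromosomes mostly had too few reads for a test. Of 27 listed, 12 had a row and 2 were tested. Plaur, encoding the GPI-anchored receptor of urokinase, which is built of Ly6-type domains, fell 1.24-fold, from 255 ± 10.7 to 206 ± 5.07 CPM (SD; log2 fold change -0.31 ± 0.06, edgeR adjusted p = 0.00245). The WT libraries were at 248, 268 and 250 CPM and the KO libraries at 201, 207 and 210 CPM, with no overlap. Cd59a, encoding an inhibitor of complement lysis, had 2.27 ± 0.519 and 2.04 ± 0.485 CPM (SD; edgeR adjusted p = 0.684). Together with the chromosome 15 list (17 listed, 8 with a row, 4 tested, 1 higher and 0 lower), family members outside the 5 thus gave 1 gene that rose and 1 that fell. Over all rows tested, 13.8% rose and 12% fell.

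Most genes for building and attaching the GPI anchor did not pass the test. Of 29 tested genes 9 rose, 2 fell and 18 did not pass, or 37.9% called against 25.8% of all rows tested, with a median log2 fold change of 0.07. By direction, the shares over all rows tested were 13.8% higher and 12% lower. Pigt (1.26-fold higher, 0.33 ± 0.06, edgeR adjusted p = 0.000638) and Gpaa1 (1.29-fold higher, 0.37 ± 0.08, edgeR adjusted p = 0.0063) encode subunits of the transamidase that joins the anchor to proteins. Pgap2, whose product remodels the lipid of the finished anchor, was 1.28-fold higher (edgeR adjusted p = 0.00393). Pigx, encoding a subunit of an early mannosyltransferase, was 1.25-fold lower (edgeR adjusted p = 0.00476). Other transamidase genes, chosen after their values were seen, were Pigk (0.28 ± 0.07) and Pigs (0.22 ± 0.06), which rose, and Pigu (0.21 ± 0.08, edgeR adjusted p = 0.074). Pigs did not pass without WT 1 (0.22), WT 2 (0.20) or KO 3 (0.20), and Pigu passed without KO 1 (0.27), without WT 2 and KO 1 (0.30) and with library size scaling (0.24). The number of genes on the list that rose was 4 without WT 2 and 5 without KO 3.

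Several Ly6 genes respond to interferons, and genes of that pathway were set beside them. Of 32 interferon-stimulated genes all rose, with log2 fold changes from 0.87 to 4.55 and a median of 2.56. For this and the lists below, the shares over all rows tested were 13.8% higher and 12% lower. The lists were chosen with earlier results of these data known, so nothing is read from their counts. Ly6a had a larger fold change than 19 of the 32, Ly6e than 8, Ly6i than 6 and Ly6c2 than 4. Among the receptors, Ifnar2, encoding a chain of the receptor for type I interferon, was 1.13-fold higher (edgeR adjusted p = 0.035). It did not pass without WT 1, WT 2, KO 2 or KO 3 (log2 fold changes of 0.16 to 0.19), without the low-count filter or with DESeq2. Ifnar1 had 145 ± 6.76 and 158 ± 4.49 CPM (SD; edgeR adjusted p = 0.156). Ifngr1 and Ifngr2, for interferon-γ, had log2 fold changes of -0.02 and -0.06 (edgeR adjusted p = 0.832 and 0.552). Downstream, Stat2 and Irf9, encoding transcription factors of the type I interferon response, were 4.14 and 2.33-fold higher (edgeR adjusted p = 8.91e-09 and 5.17e-08). Of 16 genes of interferon receptors and signalling 10 rose and 1 fell. The one that fell, Socs3 (-0.33 ± 0.11, edgeR adjusted p = 0.0475), did not pass without WT 1, WT 2, WT 3, KO 1 or KO 2, nor with library size scaling, no low-count filter, DESeq2 or the replicate block. Of 16 NF-κB subunit and response genes 9 rose and 0 fell, with a median of 0.29, among them Il1b (3.47-fold), Il6 (2.31-fold), Rel (1.46-fold) and Nfkb2 (1.28-fold).

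Within a genotype the members did not all follow the interferon-stimulated list from library to library. The geometric mean of the 32 genes was 17.1, 13 and 13.9 CPM for WT 1, 2 and 3 and 82, 101 and 83.4 CPM for KO 1, 2 and 3. It was thus highest in WT 1 and KO 2. Ly6e was highest in KO 2 but lowest in WT 1, and Ly6a was lowest in WT 1 and nearly level across KO. Ly6c2 and Ly6i were highest in WT 1 like the list, but highest in KO 1 and lowest in KO 2. With 3 libraries a genotype these orders are descriptions, and most of the differences in Ly6a and Ly6i rest on few reads. The WT orders of Ly6e (454, 466 and 457 CPM) and Ly6c2 (27.5, 25.6 and 26.9 CPM) also rest on small differences.

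**Figure D5:**
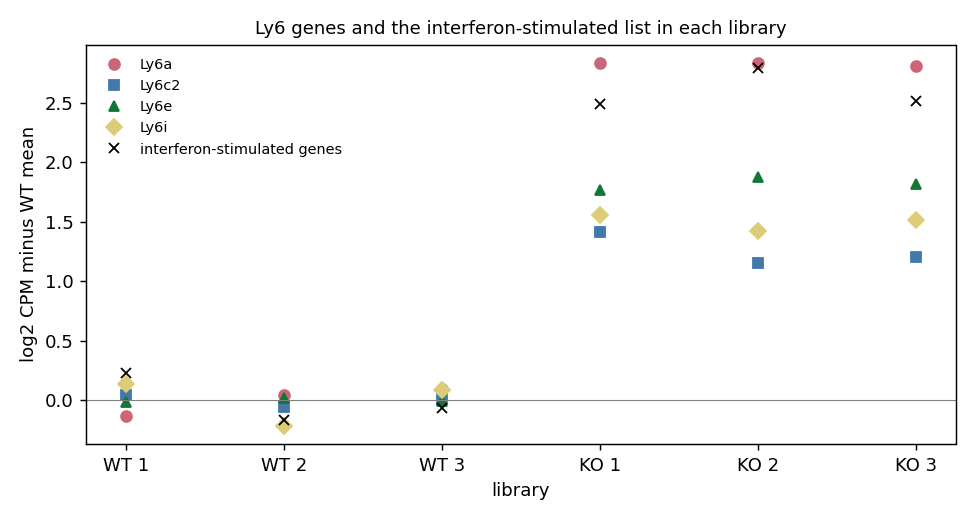
Log2 CPM minus the WT mean (vertical axis) in each library (horizontal axis) for Ly6a, Ly6c2, Ly6e and Ly6i and for the geometric mean of 32 interferon-stimulated genes. In KO the list is highest in KO 2 (101 CPM), where Ly6c2 and Ly6i are at their lowest (59.4 and 6.04 CPM).

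The rows most like each member over the 6 libraries were found by the root mean square difference in log2 CPM, each centred on its WT mean. Since the genotype difference dominates this measure, it mainly finds genes of like fold change. For Ly6a they were Oas1g (0.0718), an oligoadenylate synthetase gene, Ms4a6b (0.151) and Fcgr1 (0.16), which encodes the high-affinity IgG receptor. For Ly6e they were Thbs1 (0.108), encoding thrombospondin 1, Oas1b (0.111) and Helz2 (0.118). For Ly6c2 they were Edil3 (0.082), the activation marker gene Cd69 (0.0898) and Il18bp (0.0977), encoding an inhibitor of interleukin 18. For Ly6i they included the vitamin D receptor gene Vdr (0.072) and Pgf (0.117), encoding placental growth factor. Oas1g followed Ly6a closely in size, with WT libraries at 4.79, 5.12 and 4.91 CPM and KO libraries at 32.8, 35.7 and 35.4 CPM.

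Ly6a and Ly6C also mark other cells, so lists of their markers were counted. In bulk RNA, more cells of a type and more RNA per cell cannot be told apart. Of 6 tested stem and progenitor genes 4 rose and 0 fell, and the summed level of the list was 112 to 121 CPM in WT and 145 to 148 CPM in KO. Kit, Gata2, Cd34 and Meis1 were 1.51, 1.85, 2.01 and 1.68-fold higher, and Procr had 58.6 ± 2.14 and 56.5 ± 4.36 CPM (SD; edgeR adjusted p = 0.623). Cd34 did not pass without WT 1 (0.79) and Meis1 without KO 3 (0.62). Of 7 markers of Ly6C-high monocytes, 3 rose and 2 fell, with summed levels of 465 to 469 CPM in WT and 351 to 378 CPM in KO. Ms4a4c, which was 23.8-fold higher, Vcan (1.94-fold) and the chemokine receptor gene Ccr2 (1.38-fold) rose, while F13a1 (5.67-fold) and Chil3 (1.6-fold) fell. Of 7 tested markers of Ly6C-low monocytes, 1 rose and 1 fell (210 to 219 CPM against 189 to 236 CPM). Of 2 tested endothelial markers, 0 rose and Vwf fell 1.98-fold, and Cdh5 had at most 11 reads. The shares called were 66.7% for the stem and progenitor list, 71.4% for Ly6C-high and 28.6% for Ly6C-low monocytes. Over all rows tested the share was 25.8%, with 13.8% higher and 12% lower. The part of these cell types in the Ly6 values was not tested.

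Markers of the culture itself were present. Dendritic cell genes summed to 4468 to 4662 CPM across WT and 3552 to 3665 CPM across KO, with 2 higher and 3 lower of 8 tested. The 2 most abundant, Cd74 (mean 2697 CPM in WT, 2190 CPM in KO) and H2-Ab1 (1428 and 1016 CPM), fell, as did Ciita. Zbtb46 (log2 fold change 0.5) and Flt3 (0.23) rose, and Itgax, Batf3 and Dpp4 did not pass. Flt3 did not pass without WT 2 (0.2), and Itgax passed without KO 2 (-0.33). The number of dendritic cells was not tested. Of 8 macrophage genes 5 were higher and 0 lower, with sums of 2067 to 2244 CPM across WT and 2322 to 2695 CPM across KO. Of 6 neutrophil genes 2 were higher and 0 lower (57.3 to 71.1 against 66.8 to 86.7 CPM). Of 4 plasmacytoid dendritic cell genes 1 was higher and 0 lower (71.9 to 79.7 against 84.8 to 89.2 CPM). Siglech, also on that list, had at most 2 reads in any library. Shares called were 62.5% for the dendritic cell and macrophage lists, 33.3% for neutrophils and 25% for plasmacytoid dendritic cells. Over all rows tested the share was 25.8%. Of the T and B cell lists 1 gene each was tested, Cd28 and Cd79b. Cd28 was 1.22-fold lower (edgeR adjusted p = 0.0387), a call lost when any library was left out (log2 fold changes of -0.24 to -0.32), with library size scaling, no low-count filter, DESeq2 or the replicate block. Cd79b did not pass (edgeR adjusted p = 0.522). No NK or erythroid gene was tested, and those lists summed to less than 1 CPM in every library. Epas1, the gene of HIF-2α, checked the labels, averaging 22.2 ± 1.94 CPM across WT and 11.2 ± 1.55 CPM across KO (SD, edgeR adjusted p = 3.45e-05). It was 1.97-fold lower, and KO libraries still held 175, 214 and 198 of its reads. Counts per gene do not show how complete the deletion was. Total counts ran from 14668641 to 17884160 per library, and WT 2 and KO 1 stood apart in having a read in 25408 and 22275 rows, against 18763 to 19513 in the others. Without WT 2 and KO 1 together the median log2 fold change of the members was 1.61.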

How the data were processed

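The study measured RNA in 6 libraries of bone-marrow-derived dendritic cells, and the authors deposited raw counts of reads by gene symbol in a single table. Per the submitters' processing notes, build mm10 was used, and HTSeq, SAMtools, DESeq2, TopHat2, HISAT and HISAT2 are named without version or role. Per the labels' protocols, total RNA came from Trizol extraction. The sources used here name no annotation, strand setting or read length. Of rows that repeat a symbol (23 symbols, 47 rows), that with most reads kept it.

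Rows passing filterByExpr (minimum count 10) were scaled by TMM and fitted in R 4.3.3 by quasi-likelihood (edgeR 4.0.16) on genotype alone. The p-values were adjusted by Benjamini-Hochberg over all 13249 rows, and the fit was tested on simulated data. The SE is the log2 fold change divided by the square root of F. Alternatives used DESeq2 1.42.0 and limma 3.58.1. Positions, exon lengths and transcripts are from GENCODE M21, and promoters from RefSeq. Total counts of 14668641 to 17884160 per library set the precision, with a common biological coefficient of variation of 8.48%.

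The members, the 6 gene lists and the 12 marker lists were chosen with earlier results of these data known. Beside the members, named genes were the tested Ly6 relatives, cluster neighbours and interferon signalling genes, up to 4 called genes of each other list by lowest p, Epas1, and 3 like rows per member. Others were chosen after their values were seen. Results that need items withheld for evaluation are not reported here.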

Additional observations from a re-analysis of the deposited data

How the results depend on the processing

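The log2 fold changes of the 4 fitted members were positive under all 14 alternative settings, from 2.77 to 2.88 for Ly6a, 1.79 to 1.86 for Ly6e, 1.35 to 1.56 for Ly6i and 1.15 to 1.31 for Ly6c2. Their median was 1.61 to 1.69 when each library was left out in turn. Ly6a2 (1.22 to 1.32), Them6 (0.53 to 0.78) and Plaur (-0.25 to -0.32) passed under every setting. With library size scaling 62.3% of calls were higher, against 53.5%.

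Over all rows, 1826 rose and 1586 fell. Leaving out each library gave 1182 to 1992 higher and 945 to 1622 lower, with the lowest counts without KO 3 (1182 and 945) and 1027 lower without WT 1. Leaving out libraries also gave 0 to 1 lower on the chromosome 15 list, 4 to 10 higher and 1 to 2 lower on the GPI list, and 0 to 1 lower on the interferon signalling and NF-κB lists. Without WT 2 and KO 1 together, 1 GPI gene, 0 interferon signalling genes and 1 NF-κB gene fell. With the DESeq2 Wald test 1 GPI gene and 0 interferon signalling genes fell. The latter number was also 0 with library size scaling, no low-count filter and the replicate block, and 2 with limma-voom. The cause was not tested.

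The replicate number as a block gave 1741 higher and 1506 lower. Deviations of same-numbered libraries correlated at 0.0146, -0.11 and 0.0799, so the numbers were not taken as pairs. Depth limits Ly6c1 and the other cluster genes that had too few reads for a test, so a difference in them was not tested.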
